A study of Mus musculus with 17 samples.

Results

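The genes Il12a, Il12b, Il23a, Il27 and Ebi3 encode the chains of the interleukin-12 (IL-12) cytokine family, and open chromatin around them was followed in macrophages by ATAC-seq, which marks accessible DNA with a transposase. Members were the peaks of 17 deposited lists within 50 kb of the body of 1 of these 5 genes (GENCODE M21, mouse build GRCm38, also called mm10). In each list the peaks were ranked by their −log10 p-value, rank 1 being the strongest, and only the best 24389, the length of the shortest list, were matched between lists. Overlapping matched peaks were merged, and 34158 consensus sites held a peak in at least 2 lists. Of these, 35 lay in the windows, with 4 at Il12a, 6 at Il12b, 8 at Il23a, 11 at Il27 and 6 at Ebi3. Of all 808470 deposited intervals, 772 fell in the windows, and the 99 merged elements they formed included 64 that held no consensus site and so have no score. The windows also covered the starts of other genes: 16 of the 35 sites were nearest the start of the member itself and 19 were nearest another protein-coding gene.

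The cells were bone marrow-derived macrophages (BMDMs) of male mice aged 6 to 12 weeks, grown from marrow for 7 days in L929 cell-conditioned medium. Wild-type (WT) littermates were compared with Nur77-KO mice, which lack the nuclear receptor Nur77 (gene Nr4a1) in the whole body. The line came from a cross of loxP-flanked Nr4a1 with C57Bl6/J mice carrying CMV-Cre, the Cre then being bred out. Cells received 100 ng/ml lipopolysaccharide (LPS), a bacterial wall component that activates macrophages through TLR4, for 0, 1 or 18 h. Each of the 6 groups held 3 lists, except WT at 1 h, which held 2, named replicate 1-2 and replicate 3. The labels do not say whether the replicates came from separate mice, so the p-values measure the spread between lists.

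The lists held 24389 to 71456 intervals and carried no read totals, so depth is known only through an index, the background reads per kb implied by the peak values, which ran from 0.382 to 9.75. Its group means were 6.99 (WT) and 3.30 (KO) at 0 h, 0.995 and 1.98 at 1 h, and 6.40 and 1.48 at 18 h. KO 18 h replicate 1 stood apart through narrow peaks, with a median matched width of 167 bp against at least 338 bp in every other list. Among macrophage markers 7 of 8 (Adgre1, Csf1r, Itgam, Cd68, Spi1, Mertk and Cd14) had a matched promoter peak in all 17 lists and Lyz2 in 16. Both natural killer markers had no matched promoter peak in any list, as had Cd3e, Cd3g and Lck of T cells, Cd79a and Pax5 of B cells, and Ly6g, Mpo and S100a9 of neutrophils, while Cd3d had one in 17 lists, Col1a1 in 14, Zbtb46 in 13, Ms4a1 in 10, Elane in 2, and Xcr1 and Pdgfra in 1 each, with Flt3 and Col3a1 in none. The Nr4a1 promoter had a deposited peak in all 3 lists of KO at 0 h and at 1 h, and in 0 of 3 KO against 3 of 3 WT lists at 18 h, so a promoter peak does not check the deletion.

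IL-12 family cytokines are pairs of a helical chain and a receptor-like chain. The p40 chain (Il12b) joins p35 (Il12a) to form IL-12 and p19 (Il23a) to form IL-23, while EBI3 (Ebi3) joins p28 (Il27) to form IL-27 and p35 to form IL-35. IL-12 drives T helper 1 responses, IL-23 maintains T helper 17 cells, and IL-27 has stimulating and restraining roles in T cells. Myeloid cells make these chains when microbial products activate NF-κB, AP-1 and IRF transcription factors.

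Sites are named here by gene and by the distance of the median summit from its annotated start, with minus for upstream. The stretches shown are the 201 bases around the summits of the sites with the clearest 1 h values at Il12b and Il27, of the Il12a site found in every list, and the 250 bases before the RefSeq start of Ebi3, which its promoter peak covered. All are plus-strand GRCm38.p6 sequence, and capitals mark matches to the motifs described after them.
Il12b −9.8 kb, chr11:44390167-44390367: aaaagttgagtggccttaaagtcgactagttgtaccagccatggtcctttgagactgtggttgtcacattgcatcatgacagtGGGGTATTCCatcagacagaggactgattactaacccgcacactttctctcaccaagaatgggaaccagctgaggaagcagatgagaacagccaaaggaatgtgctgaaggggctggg
Il12b −27.0 kb, chr11:44372950-44373150: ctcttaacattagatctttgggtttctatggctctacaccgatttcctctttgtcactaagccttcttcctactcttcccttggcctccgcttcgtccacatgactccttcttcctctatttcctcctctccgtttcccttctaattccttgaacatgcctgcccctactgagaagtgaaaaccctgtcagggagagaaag
Il27 promoter, chr7:126595967-126596167: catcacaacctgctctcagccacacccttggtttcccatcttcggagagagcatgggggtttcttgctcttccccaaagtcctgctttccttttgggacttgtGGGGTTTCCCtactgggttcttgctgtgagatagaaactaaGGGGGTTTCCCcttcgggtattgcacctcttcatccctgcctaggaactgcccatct
Il27 −4.2 kb, chr7:126599075-126599275: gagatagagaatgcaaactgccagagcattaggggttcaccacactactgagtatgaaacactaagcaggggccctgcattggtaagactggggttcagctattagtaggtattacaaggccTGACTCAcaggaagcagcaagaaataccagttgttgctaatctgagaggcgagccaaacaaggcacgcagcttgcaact
Il27 −12.3 kb, chr7:126607110-126607310: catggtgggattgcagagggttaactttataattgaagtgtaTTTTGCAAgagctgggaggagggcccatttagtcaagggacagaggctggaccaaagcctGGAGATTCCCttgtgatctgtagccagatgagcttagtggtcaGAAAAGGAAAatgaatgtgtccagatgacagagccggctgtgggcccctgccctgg
Ebi3 upstream of the RefSeq start, chr17:55952373-55952622: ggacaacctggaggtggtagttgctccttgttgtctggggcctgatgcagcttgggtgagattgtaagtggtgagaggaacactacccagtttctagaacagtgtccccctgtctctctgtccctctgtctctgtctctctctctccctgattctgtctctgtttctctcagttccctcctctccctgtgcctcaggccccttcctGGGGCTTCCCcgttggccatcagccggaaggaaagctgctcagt
Il12a +18.0 kb, chr3:68709286-68709486: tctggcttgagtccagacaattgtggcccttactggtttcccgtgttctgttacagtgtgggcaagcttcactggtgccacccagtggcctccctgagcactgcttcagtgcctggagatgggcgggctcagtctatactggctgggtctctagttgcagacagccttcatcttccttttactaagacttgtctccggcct

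Both strands were searched for AP-1 (TGANTCA), C/EBP (TTGCNNAA), PU.1 (GAGGAAGT) and NBRE (AAAGGTCA, the response element of Nur77), and for NF-κB and ISRE by their consensus. NF-κB matched within 100 bp of the summit at 6 of the 35 sites (4 of the 16 nearest their own member), where 4.87% of all 34158 sites held it. AP-1 matched at 6 of 35 against 20.1% of all sites, and ISRE at 6 of 35 against 7.56%. C/EBP matched at 3 of 35 (11.3% of all sites), PU.1 at 2 of 35 (8.03%) and NBRE at 0 of 35 (1.02%). The NF-κB match of Il12b −9.8 kb lay 12 bp before the summit, and the Il27 promoter held 3 NF-κB matches, 2 of which overlap each other. The Il27 −12.3 kb site held an NF-κB, a C/EBP and an ISRE match without overlap, and the NF-κB match of Ebi3 lay 44 bases before the RefSeq start, a motif present in 3.90% of such 250-base stretches. The RefSeq promoter table held 3 of the 5 genes, Il12a, Il12b and Ebi3. A match is a string of letters and was not tested as a binding site.

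The Il12b locus (chr11:44400063-44414033, plus strand, ENSMUSG00000004296.14) held the largest 1 h difference of the 35 sites, at an intergenic element 9796 bp before the start (chr11:44389854-44390693). This element was selected on its rank at 1 h, so its time course is a description with no test. At 0 h its peak ranked 56100, 38460 and 41711 in WT and 45948 and 33979 in KO, with no peak in KO replicate 3. At 1 h it ranked 1494 and 1079 in WT and 1240, 529 and 1802 in KO. At 18 h it ranked 11367, 13888 and 13812 in WT and 3824, 10576 and 8573 in KO. All 6 lists at 0 h thus lay beyond the matched 24389, all 5 lists at 1 h were within the best 1802, and the 18 h lists lay between them with no overlap.

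Ranks were turned into a rank score, log2 of 24390 divided by the rank, with 0 for a list without a matched peak, so that 1 unit is a rank better by a factor of 2. The score of Il12b −9.8 kb was 0 in all lists at 0 h. At 1 h WT reached 4.26 ± 0.33 (SD, n = 2), KO 4.53 ± 0.91 (SD, n = 3), and at 18 h WT kept 0.91 ± 0.16 against 1.80 ± 0.77 for KO (n = 3 each). The mean difference from 0 h was 4.40 at 1 h, the 8th largest of 34158 sites, and 1.35 at 18 h. Summits of the 5 lists at 1 h fell within 25 bp of each other, against 205 bp among the 5 peaks at 0 h. The reads piled up at the summit ranged from 19 to 195 at 1 h and from 7 to 32 at 0 h, which limits single ranks. Leaving out each list in turn gave 4.15 to 4.59 at 1 h and 1.13 (without KO 18 h replicate 1) to 1.50 at 18 h. Counting only the 10000 best peaks of each list gave 3.11 and 0.27.

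Further upstream, Il12b −27.0 kb (chr11:44372130-44373322) at 1 h ranked 4591 and 6921 for WT, with KO at 9735, 11729 and 24756. At 0 h no list reached the matched number, with best ranks of 42443 (WT) and 27661 (KO), and at 18 h the best WT rank was 49535 and KO had no peak. It had a matched peak in 4 of 5 lists at 1 h and in 0 of the other 12, with a difference of 1.45 from 0 h. A site like this, which entered the set only through the lists in which it was high, had to differ, so no test is given for it. Il12b −22.0 kb (chr11:44377667-44378559) was matched at every time and rose at 1 h by 0.38 ± 0.08 (SE; limma across all sites, Benjamini-Hochberg adjusted p = 0.00201), with ranks of 15275 to 21270 in all 5 lists at 1 h against 22335 to 34565 at 0 h, so the groups did not overlap. The promoter site (chr11:44398490-44399405, summit 1006 bp before the start, and no promoter site by a 500 bp limit) rose by 0.43 ± 0.15 (limma adjusted p = 0.0355), with ranks of 14416 to 17880 at 1 h against 12431 to 30379 and 1 list without a peak at 0 h. KO 0 h replicate 3, at 12431, overlapped the 1 h lists there. The promoter call was kept in 8 of the 17 fits that each left out 1 list. With a depth covariate, log2 of the background reads before scaling per kb, its limma adjusted p was 0.400. Il12b +14.9 kb, past the gene's end, had a difference of −0.41 ± 0.15 at 1 h (limma adjusted p = 0.0540), ranking 15193 to 19700 in 5 lists at 0 h and 28830 or worse at 1 h.

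**Figure D1:**
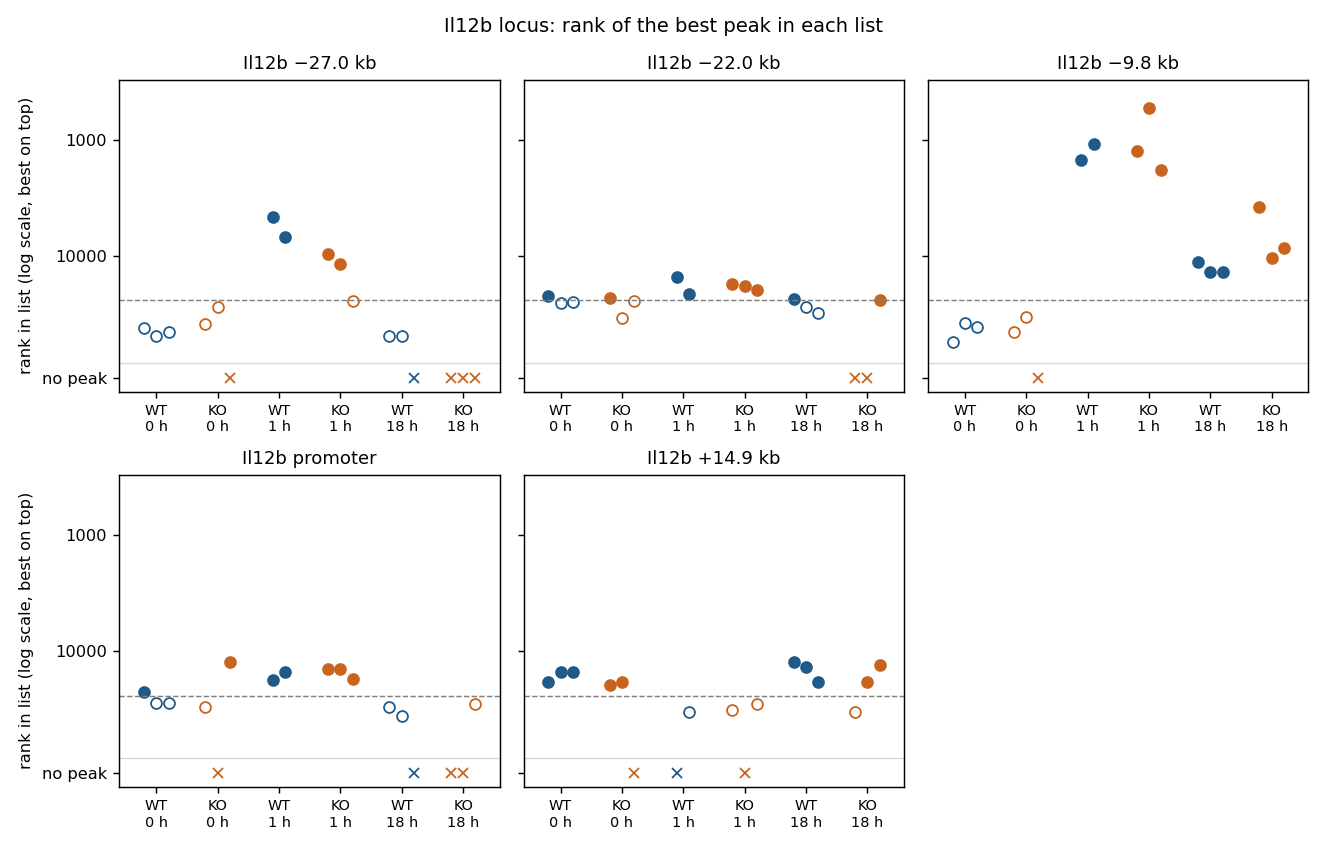
Rank of the strongest peak (log axis, best on top) in each list at the 5 sites nearest the Il12b start, by genotype (WT blue, KO orange) and hours of LPS. Filled points are within the best 24389 (dashed line), open points are deposited peaks beyond it and crosses are lists without a peak; at −9.8 kb the 5 lists at 1 h lie between 529 and 1802.

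Il12a (chr3:68690644-68698547, plus strand, ENSMUSG00000027776.12), the p35 chain, had few strong peaks. Its promoter site, in an intron 84 bp before an annotated internal start, had 1 h ranks of 20066 and 29669 for WT, and of 20792 and 34861 for KO, with 1 KO list without a peak. At 0 h the deposited peaks ranked 70183 (WT) and 55655 (KO) and the other 4 lists had none. Only 2 of 17 lists reached the matched number there, and no difference was called. The site at +18.0 kb (chr3:68708883-68709919) was matched in all 17 lists with ranks of 10167 (WT 1 h replicate 3) to 24237. Its difference was 0.35 ± 0.18 at 1 h (limma adjusted p = 0.164), within the overlap of the groups. It rested on WT 1 h replicate 3: without that list it was 0.09 (adjusted p = 0.783), and with that list as the lone WT list at 1 h, its spread taken from the other groups, 0.62 (adjusted p = 0.0163). The sites at −47.5 kb and +2.2 kb held a matched peak in few lists and were not called in any comparison.

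Il23a (chr10:128296139-128298752, minus strand, ENSMUSG00000025383.2), the p19 chain, had an open promoter before LPS. The promoter site (chr10:128296001-128299987), which spans the gene's whole length, had 0 h ranks of 7207, 11198 and 10115 for WT, with KO at 10071, 6548 and 9559. At 1 h it ranked 6268 and 5503 in WT and 6811, 4243 and 6635 in KO, and at 18 h 5909 to 12262. It rose at 1 h by 0.62 ± 0.22 (limma adjusted p = 0.0432), although KO 0 h replicate 2 (6548) lay among the 1 h lists. That call was kept in 7 of the 17 fits that left out 1 list, and its adjusted p was 0.246 with the depth covariate. Il23a +4.5 kb (chr10:128292513-128295756) had no deposited peak at 1 h and 1 at 0 h, at rank 68995. At 18 h it ranked 21991, 29058 and 23550 in WT and 12545 and 20827 in 2 KO lists. The difference was 0.23, with no test, since the site was matched only at 18 h. Leaving out 1 list gave 0.09 (without KO 18 h replicate 2) to 0.33.

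Stronger changes in the Il23a window lay nearest other genes. Il23a −5.3 kb, nearest Pan2 (a poly(A) nuclease gene), had 1 h ranks of 149 and 253 for WT, with KO at 343, 422 and 263, against 358 to 993 at 0 h. It rose by 1.54 ± 0.41 (limma adjusted p = 0.00857, and 0.120 with the depth covariate), with KO 0 h replicate 3 (358) among the 1 h lists. Il23a +27.6 kb, nearest Stat2 (a mediator of type I interferon signalling), had 18 h ranks of 566, 519 and 649 for WT, with KO at 335, 728 and 889, against 974 to 2384 at 0 h. It rose by 1.63 ± 0.34 (limma adjusted p = 0.00194) with no overlap. Il23a −39.6 kb, nearest the citrate synthase gene Cs, rose at 18 h by 0.95 ± 0.32 (limma adjusted p = 0.0400). That site falls outside the naming rule and was chosen after its values were seen.

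**Figure D2:**
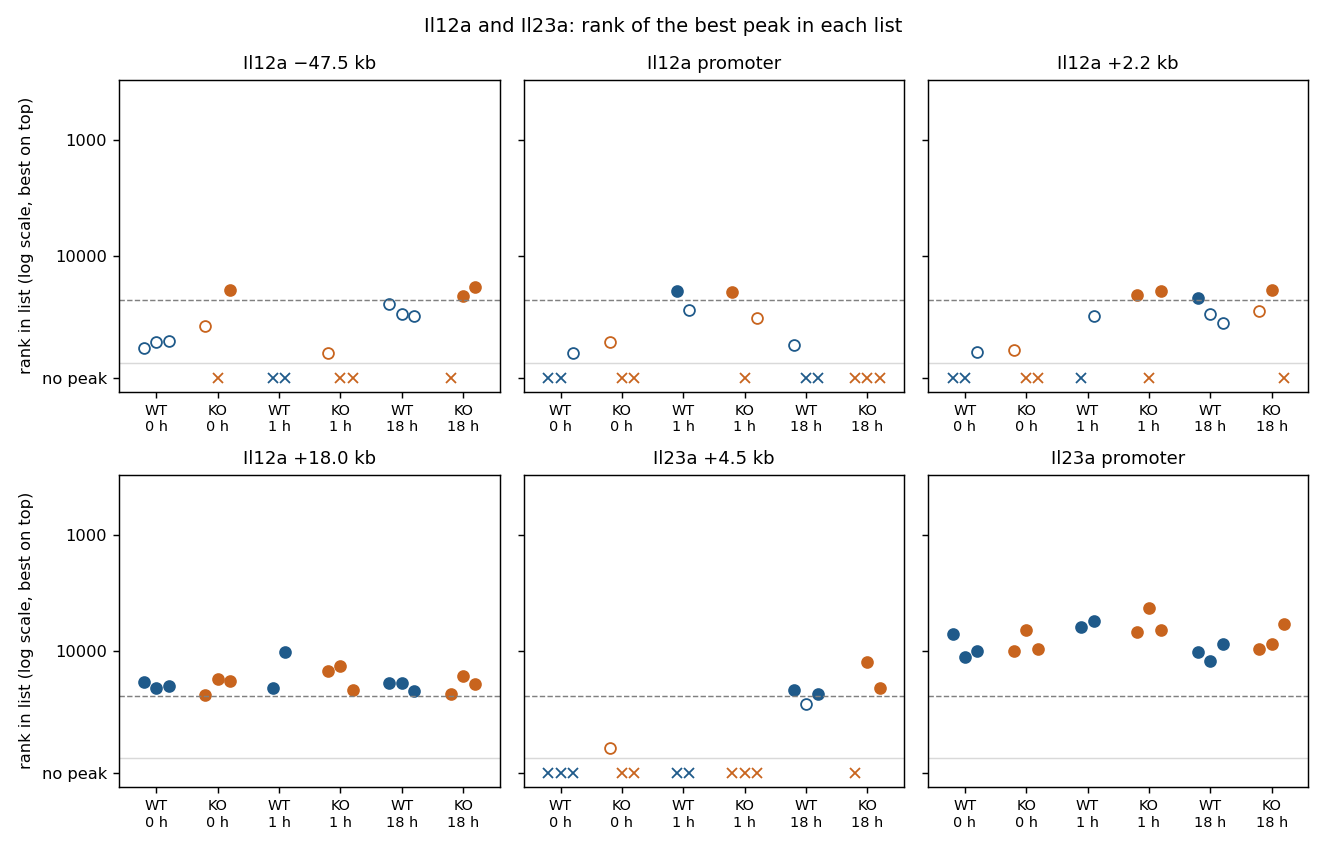
Rank of the strongest peak in each list at the 4 Il12a sites and the 2 sites nearest the Il23a start, drawn with the same symbols and log axis as for Il12b. Il12a +18.0 kb and the Il23a promoter are filled in all 17 lists, and Il23a +4.5 kb has deposited peaks mainly at 18 h.

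Il27 (chr7:126589010-126594941, minus strand, ENSMUSG00000044701.5), the p28 chain, had 11 sites. Its promoter, −33.2 kb and +20.1 kb sites were matched only at 1 h, and of the other 8, 4 rose then, where 11.1% of all such sites rose. The strongest was Il27 −4.2 kb (chr7:126598436-126599856). At 0 h WT ranked 21038, 22202 and 23013, while KO had 29665, 33107 and 22178. At 1 h it ranked 7697 and 5490 in WT and 5675, 4790 and 3905 in KO. At 18 h it ranked 11589, 13213 and 12072 in WT and 11415, 17629 and 15902 in KO. The 3 times did not overlap. The score rose by 2.04 ± 0.17 at 1 h (limma adjusted p = 1.34e-07; exact permutation p = 0.005, the smallest this design allows) and by 0.76 ± 0.16 at 18 h (limma adjusted p = 0.00176).

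The Il27 promoter site (chr7:126594654-126596747, summit 1126 bp before the start) was matched only at 1 h, where it ranked 9987 and 10446 in WT and 16428, 14561 and 13240 in KO. At 0 h its deposited peaks ranked 32411 or worse and at 18 h 25681 or worse. Its score was 0 in the 12 lists of the other times and the 1 h difference was 0.99, given without a test because the site entered the set only through the 1 h lists. Its summits spread over 1300 bp among the 1 h lists, so it is a broad site. Il27 −12.3 kb (chr7:126606637-126607684) ranked 17173 to 22076 in 5 lists at 0 h, and at 1 h 14577 and 5967 for WT, with KO at 5515, 11559 and 11446. It rose by 1.09 ± 0.25 (limma adjusted p = 0.00312), and its 18 h difference was 0.49 (adjusted p = 0.148). Il27 −8.9 kb was unmatched at 0 h (54256 or worse) and ranked 7520 to 23900 at 1 h and 10299 to 21645 at 18 h. Its groups did not overlap at either time, and its differences of 0.58 ± 0.23 and 0.57 did not pass (limma adjusted p = 0.0630 and 0.0613). The exact permutation p was 0.005 for each, and adjusted over all sites it passed (0.0272 and 0.0336). With all deposited peaks the differences were 1.16 and 1.23 and passed (limma adjusted p = 0.00216 and 0.000524), as they did among sites in 5 lists (0.0420 and 0.0392). Under the main ranking neither passed with the depth covariate or with replicate numbers as a block. Of the 17 fits that each left out 1 list, 3 passed at 1 h and 2 at 18 h. Those fits gave 0.36 (without KO 1 h replicate 2) to 0.74 at 1 h and 0.47 to 0.71 at 18 h.

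Also in the Il27 window, Il27 +10.2 kb, nearest Cln3 (a lysosomal membrane protein gene), had 1 h ranks of 1242 and 1329 for WT, with KO at 1512, 3165 and 981, against 2755 to 5467 at 0 h. It rose by 1.44 ± 0.33 (limma adjusted p = 0.00300), with KO replicate 2 inside the 0 h range. Il27 −30.6 kb, nearest the stress-response gene Nupr1, rose at 1 h by 0.95 ± 0.22 (limma adjusted p = 0.00359), with ranks of 6312 to 18610 against 14303 to 25894, WT replicate 1-2 (18610) being the list that overlapped 0 h. Il27 −33.2 kb, also nearest Nupr1, was matched in the 3 KO lists at 1 h and in no other list, and is given no test. Il27 −48.5 kb, nearest Sgf29, fell at 18 h by 0.64 on the score scale (standard error 0.18, limma adjusted p = 0.0152). Il27 −33.2 kb and −48.5 kb fall outside the naming rule and were chosen after their values were seen.

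Ebi3 (chr17:55952640-55957022, plus strand, ENSMUSG00000003206.7), the partner chain of p28, had a change that stayed at 18 h. Its promoter site (chr17:55952082-55953369, summit 8 bp after the start) had 0 h ranks of 12062, 10482 and 11462 for WT, with KO at 12786, 9991 and 9504. At 1 h it ranked 7141 and 2718 in WT and 4116, 2398 and 5107 in KO. At 18 h it ranked 4942, 5782 and 3987 in WT and 4650, 3256 and 3981 in KO. Neither LPS time overlapped with 0 h. The score rose by 1.45 ± 0.27 at 1 h (limma adjusted p = 0.000573) and by 1.33 ± 0.25 at 18 h (adjusted p = 0.000876). Its summits lay within 60 bp of each other at each time.

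The other Ebi3 sites were nearest other genes. Ebi3 −7.3 kb, nearest the zinc finger gene Zfp119b, fell at 1 h by 0.95 on the score scale (standard error 0.29, limma adjusted p = 0.0206), the window set's only lower call at that time. It ranked 6158 to 8151 at 0 h, then 15014 and 14116 for WT after 1 h, with KO at 6521, 16844 and 20588, so KO 1 h replicate 1 stayed in the 0 h range. Its adjusted p was 0.206 with the depth covariate, and the call was kept in 14 of the 17 fits without 1 list. Ebi3 +10.7 kb, nearest Yju2 (a splicing factor gene), rose at 18 h by 0.59 ± 0.19 (limma adjusted p = 0.0263), with overlapping ranks of 9254 to 14317 against 11826 to 21251 at 0 h. That call was kept in 11 of the 17 fits. Ebi3 +8.8 kb, also nearest Yju2 and outside the naming rule, was matched in 4 lists, all at 1 h, and is given no test.

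**Figure D3:**
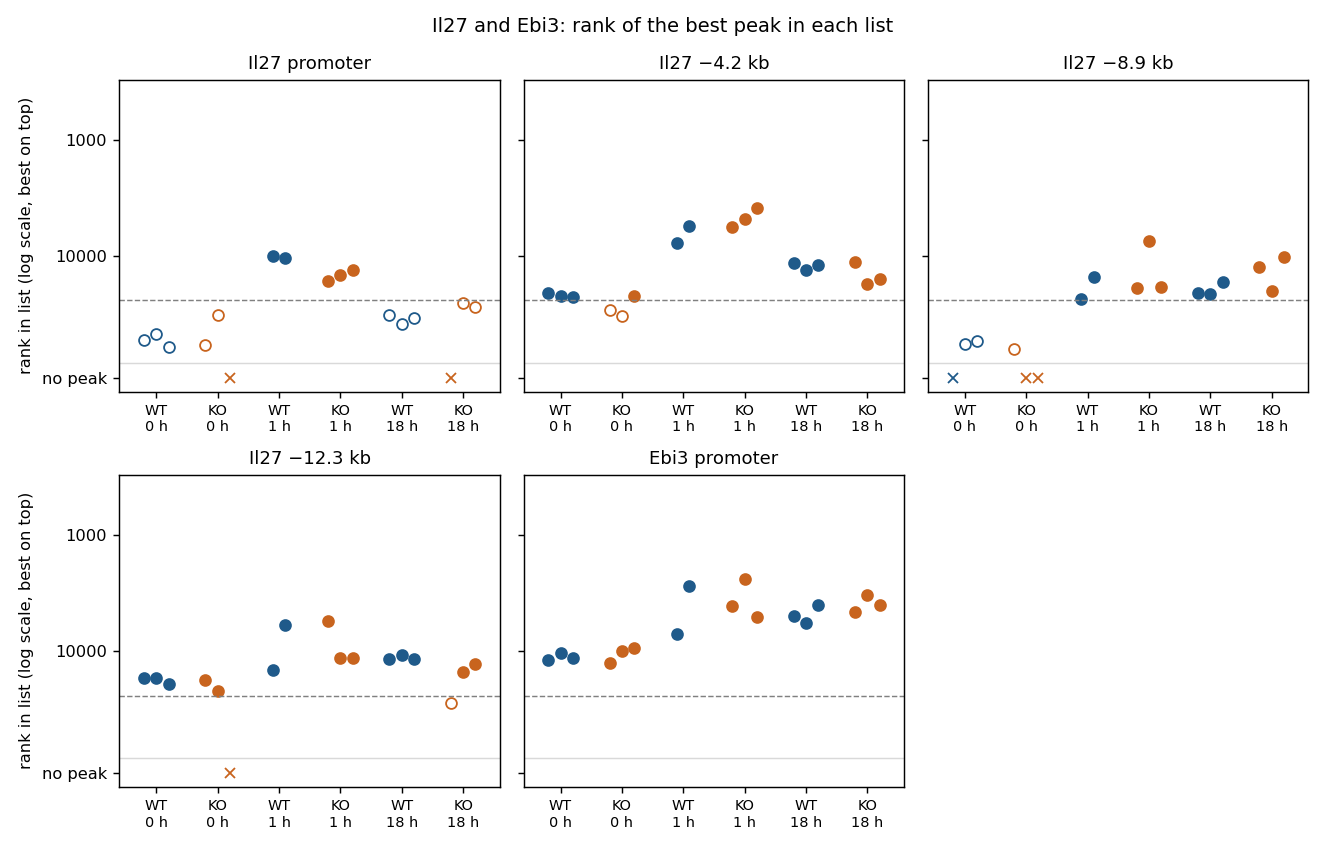
Rank of the strongest peak in each list at the 4 sites nearest the Il27 start and at the Ebi3 promoter, drawn with the same symbols and log axis. At Il27 −4.2 kb the 1 h lists (3905 to 7697), 18 h lists (11415 to 17629) and 0 h lists (21038 to 33107) are separate, and the Ebi3 promoter ranks 2398 to 7141 at 1 h and 3256 to 5782 at 18 h.

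By limma 13.7% of all 34158 sites rose at 1 h and 14.2% fell. Counts over sites that entered only through the higher lists would be raised by that choice, so the sites at the loci were counted among those with matched peaks in at least 2 lists outside the higher time, a restriction chosen after seeing the data. Leaving aside the Il12b element, 9 of 28 such sites rose at 1 h, where 11.1% of all such sites did, with 2 at Il12b, 2 at Il23a, 4 at Il27, 1 at Ebi3 and 0 at Il12a. The 4 called sites left out were Il12b −27.0 kb, the Il27 promoter, Il27 −33.2 kb and Ebi3 +8.8 kb. Of 34 sites 1 fell, against 13.5% of all such sites. At 18 h, when 10.9% of all sites rose and 12.8% fell, 5 of 31 sites at the loci rose, against 9.21%, and 1 of 34 fell, against 12%. The median difference over the 28 sites at 1 h was 0.16, against −0.06 over all such sites, and over the 31 sites at 18 h it was 0, against −0.03.

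Many of these calls changed with the processing. With the depth covariate, the Il12b and Il23a promoters, Il23a −5.3 kb and Ebi3 −7.3 kb were no longer called at 1 h. Ranking all deposited peaks ended the 1 h calls of the same promoters and Il23a −5.3 kb and of Il12b −22.0 kb (limma adjusted p = 0.870), Il27 −12.3 kb (0.104) and Il27 −30.6 kb (0.206), and the 18 h calls of Il27 −4.2 kb (0.217), Ebi3 +10.7 kb (0.591) and Il23a −39.6 kb (0.279). Requiring a peak to cover 50% of a site ended the 1 h calls of Il12b −22.0 kb (limma adjusted p = 0.648), Il23a −5.3 kb (0.260) and Il27 −12.3 kb (0.0614), and turned Il27 +10.2 kb to −1.13 (0.206). At 18 h it ended those of Il27 −4.2 kb (0.241), Il27 −48.5 kb (0.0947), the Ebi3 promoter (0.415) and Ebi3 +10.7 kb (0.506), and turned Il23a −39.6 kb to −1.55 (0.192). The Il23a promoter and Il23a +27.6 kb were not tested with that cover, since they no longer passed the filter. The exact permutation test adjusted over all sites ended the calls of the Il12b promoter (0.131), the Il23a promoter (0.0913) and Ebi3 −7.3 kb (0.0665) at 1 h and of Ebi3 +10.7 kb and Il23a −39.6 kb (0.0751 each) at 18 h. With the 10000 best peaks the 1 h calls of Il27 −12.3 kb, Il27 −30.6 kb and Ebi3 −7.3 kb and the 18 h calls of Il27 −4.2 kb, Ebi3 +10.7 kb and Il23a −39.6 kb were lost, and Il12b −22.0 kb, the Il12b promoter and Il27 −48.5 kb were not tested. Other calls were gained. Besides Il27 −8.9 kb, ranking all deposited peaks gave a 1 h difference of −1.13 at Il12b +14.9 kb (limma adjusted p = 0.00453) and an 18 h difference of −0.78 at the Il12b promoter (0.0312), under a ranking in which 7.76% of all sites rose and 31% fell at 1 h and 5.67% rose and 23.6% fell at 18 h. Il12b +14.9 kb also passed at 1 h under the main ranking among sites in 5 lists (−0.41, limma adjusted p = 0.0423) and in 4 of the 17 fits that each left out 1 list. Ranking all deposited peaks also gave 0.48 at the Il12a promoter at 1 h and 0.86 at Il23a +4.5 kb at 18 h. Each site entered the set only through the lists of that time, so these values are no gained calls. The depth covariate passed Il27 −12.3 kb at 18 h (0.64, adjusted p = 0.0174). The 1 h calls of Il27 −4.2 kb and the Ebi3 promoter passed under every alternative run. Both comparisons share the 0 h lists. The outermost sites inside the windows had mean scores of 0.05 (Il12a, 47471 bp from the gene) to 1.15 (Il23a, 45622 bp), and the nearest ones beyond it had 0.19 (Il23a, 58458 bp) to 2.77 (Il27, 53648 bp).

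**Figure D4:**
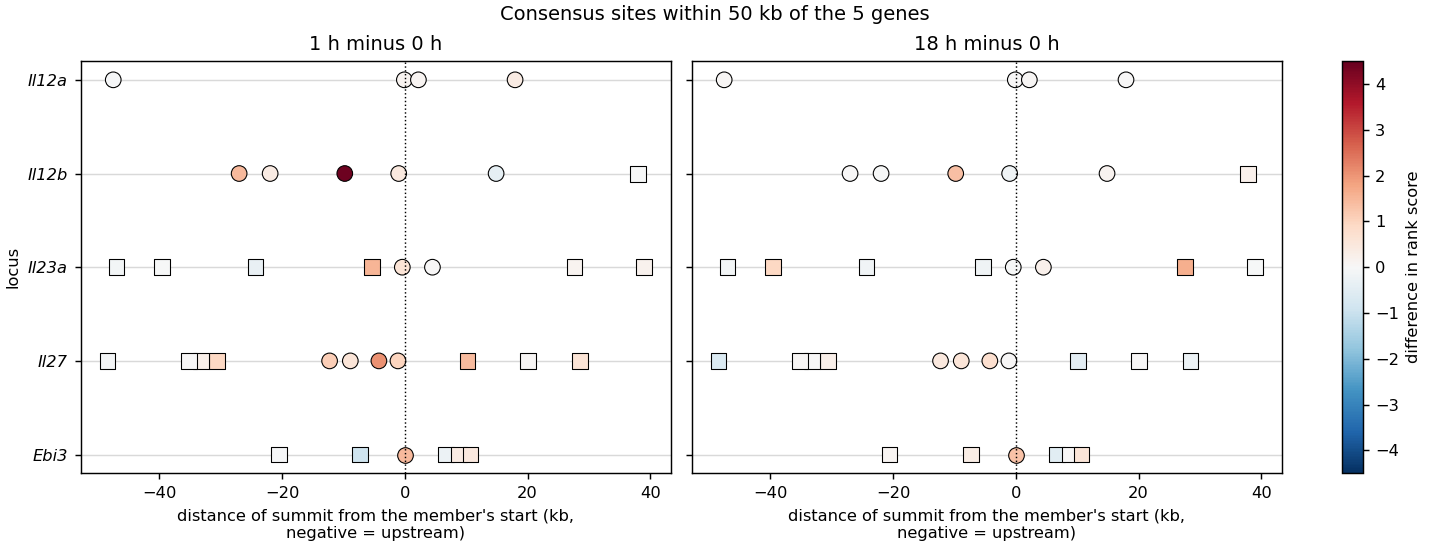
Position of the 35 consensus sites (distance of the median summit from the member's start, kb, along the gene's strand), coloured by the difference in rank score from 0 h, after 1 h (left) and 18 h (right). Circles are sites nearest the member's own start and squares those nearest another gene; the darkest is Il12b −9.8 kb at 1 h (4.40).

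To see whether loss of Nur77 was accompanied by other accessibility at these loci, KO and WT were compared over the 3 times. None of the 35 sites was called by limma (smallest adjusted p = 0.311), where 0.386% of all sites were; 4 had an unadjusted p under 0.05, and by the exact permutation test 0 did. The Il12b −9.8 kb element differed by 0.38 ± 0.24 between KO and WT (limma adjusted p = 0.643, exact permutation p = 0.22). Leaving out 1 list gave 0.22 (without KO 1 h replicate 2) to 0.51. The 18 h response of this element was larger in KO by 0.88 (limma adjusted p = 0.837). KO 18 h replicate 1, the list of narrow peaks, held the best KO rank there (3824). The difference of lowest adjusted p was Il12b −27.0 kb, with −0.44 ± 0.15 (KO minus WT): at 1 h its score was 2.11 ± 0.42 in WT (n = 2) and 0.79 ± 0.70 in KO (n = 3), the groups not overlapping. The difference of its 1 h response between genotypes was −1.32 (limma adjusted p = 0.275). Without WT 1 h replicate 3 it was −1.62 (adjusted p = 0.0371), but WT at 1 h then rested on replicate 1-2 alone, the shallowest list, whose spread was taken from the other groups. Over the 35 sites, 0 were called for a genotype difference of the 1 h response (0.102% of all sites; smallest adjusted p = 0.275, 3 at unadjusted p under 0.05, 1 by the exact test) and 0 for the 18 h response (0.00586% of all sites; smallest adjusted p = 0.837, 0 at unadjusted p under 0.05 by either test). At 1 h the Il27 promoter scored 1.26 ± 0.05 for WT (SD, n = 2) against 0.73 ± 0.16 for KO (n = 3), and Il27 −4.2 kb 1.91 ± 0.34 against 2.36 ± 0.27. Neither was called.

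**Figure D5:**
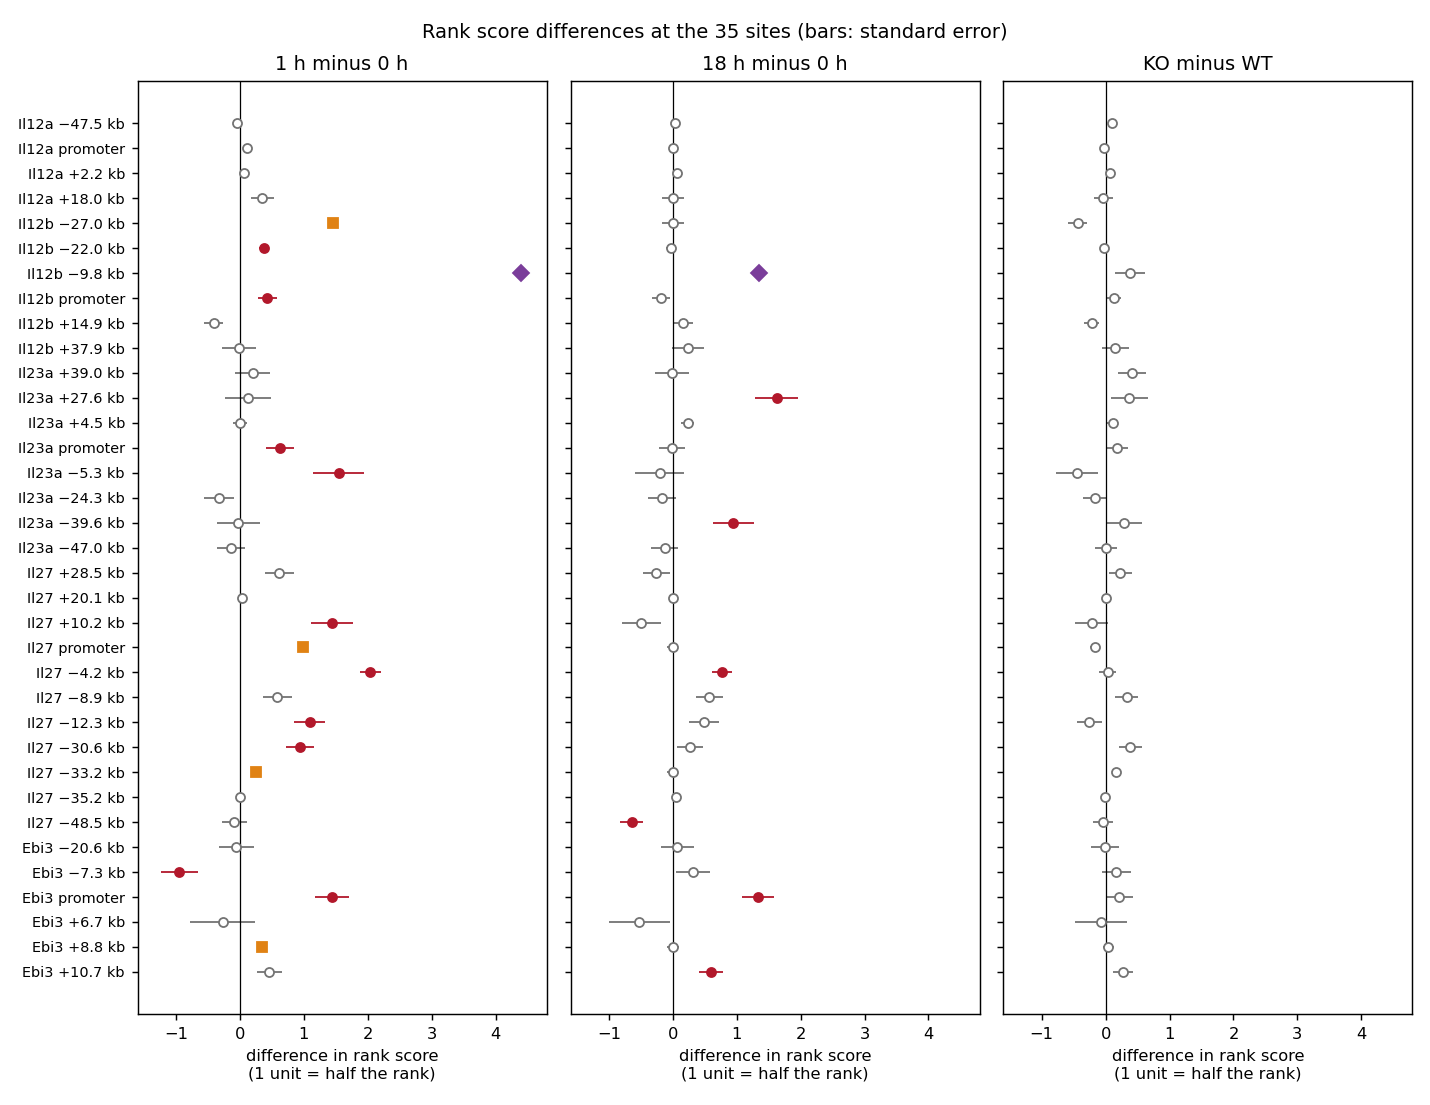
Difference in rank score ± standard error at each of the 35 sites for 1 h minus 0 h, 18 h minus 0 h and KO minus WT. Red points were called by limma (adjusted p under 0.05) and open points were not called. Orange squares passed that threshold at 1 h but entered the set only through 1 h lists, so they are given no test. Diamonds mark the Il12b −9.8 kb element, which was selected on these times and has no error bar. No point is red for KO minus WT.

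The number of matched peaks in each window was counted per list. At Il27 it was 5.67 (WT) and 5.00 (KO) at 0 h, 10.5 and 10.3 at 1 h, and 7.33 and 6.33 at 18 h. It rose by 5.08 at 1 h (exact permutation within genotype, p = 0.005, the smallest possible) and by 1.5 at 18 h (exact permutation p = 0.02). The 18 h difference changed sign when the 10000 best peaks were counted (−0.5, exact p = 0.2) or every deposited one (−0.167, exact p = 1), and in the latter case the 1 h difference was 6.08 (exact p = 0.135). Ebi3 gained 1 peak at 1 h (exact permutation p = 0.015) and 0.167 at 18 h (exact p = 1). The Ebi3 gain at 1 h was 0.333 with the 10000 best peaks (exact p = 0.6). Il23a differed by −0.25 at 1 h (exact p = 0.4) and by 1 at 18 h (exact p = 0.08). Il12a differed by 0.667 and 0.5 (exact p = 0.32 and 0.55). Leaving out 1 list gave 0.167 to 1.17 at 1 h and 0.0833 to 0.833 at 18 h there. At Il12b, where the element was selected, the count was 2.67 (WT) and 2.33 (KO) at 0 h, 5.5 and 4.67 at 1 h, and 3.33 and 3 at 18 h, with no test. Between KO and WT the 5 loci differed by −0.611 (Il27) to 0.556 (Il12a) peaks, with exact permutation p-values of 0.138 to 0.5.

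Around other genes of the pathway, 114 sites lay at 23 of 28 listed genes. Counted with the same restriction, 22 of 92 rose and 6 of 104 fell at 1 h, where 11.1% of all such sites rose and 13.5% fell, and 18 of 99 rose and 7 of 104 fell at 18 h, where 9.21% rose and 12% fell. Between KO and WT 0 were called, against 0.386% of all sites. For transcription factors that act on the family, 12 of 46 such sites rose and 4 of 60 fell at 1 h. Those that rose were 4 at Nfkb1, 3 at Nfil3, 2 each at Rel and Nfkbiz (an atypical IκB) and 1 at Irf1, and those that fell were 2 at Irf8 and 1 each at Irf5 and Spi1, while Rela and Cebpb had none. At 18 h 9 of 56 rose and 1 of 60 fell, with 4 of the higher at Nfil3 and 3 at Cebpb. Of partners and targets 7 of 12 sites rose at 1 h, 4 of them at the anti-inflammatory cytokine gene Il10, and 0 of 15 fell. At 18 h 1 of 13 rose and 2 of 15 fell. Kinases and STAT factors, which carry the receptor signal, had 2 of 25 sites higher and 1 of 23 lower at 1 h, and 7 of 21 higher and 1 of 23 lower at 18 h. Receptors had 1 of 9 higher and 1 of 6 lower at 1 h, and 1 of 9 higher and 3 of 6 lower at 18 h.

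Lists of 1 time share a treatment, so Pearson's r over the 17 lists is a description. By it, the sites elsewhere whose scores followed each member's best site most closely were listed. For Il12b −9.8 kb they were nearest Cmklr1 (r = 0.972), Ccl2 (0.972), Grap (0.969), Notch2 (0.963) and Ercc6l2 (0.963), and 226 sites exceeded 0.9. For Il27 −4.2 kb they were nearest Mprip (r = 0.962), Csf1 (0.961), Tnfrsf8 (0.959), Prdm1 (0.956) and Itgal (0.955), with 147 above 0.9. For the Ebi3 promoter, with 10 above 0.9, they were nearest Eva1b (r = 0.940), Flrt3 (0.935), Scgb1a1 (0.929), Ren1 (0.922) and Cxcl10 (0.912). The Il23a promoter reached at most 0.847 (nearest Htra1, then Sod2 at 0.840, Htra1 again at 0.833, Srgn at 0.832 and Perp at 0.824), and Il12a +18.0 kb at most 0.877 (nearest Gm9817, then Elk3 at 0.876, St5 at 0.874, Plxna2 at 0.873 and Atp1b3 at 0.872).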

How the data were processed

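The authors trimmed reads with cutadapt 2.6, processed them with the snakeATAC pipeline against mm10 and compared sites with DiffBind 3.0.15. They deposited narrowPeak lists, in which the peak names state a mapping quality filter, removal of mitochondrial and duplicate reads and a q-value cut-off. The peak caller is not given in the sources used here. Each deposited list holds an integer score, a fold enrichment ratio, a −log10 p-value and a −log10 q-value per peak, with no counts, so the DiffBind test could not be refitted. Entries of equal interval were reduced to the best one, ranked by −log10 p and kept to the best 24389 of each list. Consensus sites were unions of kept peaks overlapping by at least 1 bp and present in at least 2 lists.

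Rank scores were fitted in limma 3.58.1 (R 4.3.3) with trend and robust options, 1 coefficient per genotype and time, over all 34158 sites, and called at a Benjamini-Hochberg adjusted p under 0.05. Single sites and peak counts were also tested by two-sided exact permutation of lists within genotype or time. The steps were tested on simulated data with a difference added at 1 h. Limma called 23 of 100 sites given 1 score unit and 85 of 100 given 2 units, against 6 of 33958 given none. A genotype difference was not simulated, so sites not called between KO and WT may still differ. A promoter site lies within 1 kb of an annotated start. Named sites are the sites nearest the member's own start and, per locus, up to 2 nearest another gene with the largest called difference. The members, lists and named sites were chosen with earlier results of these data known. Alternatives were 10000 peaks per list, all deposited peaks, 50% cover for a match, sites in 5 lists, other tie handling, 10 kb windows, a 500 bp promoter, a depth covariate, a replicate block and leaving out each list.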

Additional observations from a re-analysis of the deposited data

How the results depend on the processing

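The site calls were mainly sensitive to how peaks were kept and matched. The counts here include the Il12b element and the sites that entered only through the 1 h lists, so they describe the settings and support no direction. Of the 35 sites, 18 were tested with the 10000 best peaks, 31 with 50% cover and 26 among sites in 5 lists. Beside the 14 of 35 sites higher at 1 h (13.7% of all sites), 8 of 18 were called with the 10000 best peaks (13.1% of all), 9 with all deposited peaks (7.76%) and 8 of 31 when a peak had to cover 50% of a site (5.4%). Beside the 1 site lower at 1 h (14.2% of all), 2 were called with all deposited peaks (31%), with 50% cover (16.9%) and among sites in 5 lists (18.5%), and 0 with the 10000 best peaks (11%), the depth covariate (6.51%), the exact permutation test (12.4%) and the replicate block (8.52%). Beside 6 higher and 1 lower at 18 h (10.9% and 12.8% of all), the calls were 2 and 0 with the 10000 best peaks (7% and 8.35%) and 0 and 0 with 50% cover (3.96% and 8.89%), and 2 were lower with all deposited peaks (23.6%). Leaving out each list gave 11 to 16 higher (11.7% to 15.5% of all) and 0 to 2 lower (9.81% to 18.6%) at 1 h, 4 to 7 higher (8.58% to 14%) and 1 lower (10.2% to 13.6%) at 18 h, and 0 to 1 higher for KO against WT (0.0673% to 0.615%). For the genotype difference of the 1 h response it gave 0 to 1 higher (0% to 0.708%) and 0 to 1 lower (0.041% to 2.83%). The calls for genotype were Il27 −33.2 kb without KO 1 h replicate 2 (0.228% and 0.161% of all sites higher there), a site matched only in KO lists at 1 h and so no test of genotype, and Il12b −27.0 kb without WT 1 h replicate 3 (2.83% lower there), a site matched only at 1 h. Il27 +10.2 kb turned to −1.13 at 1 h with 50% cover (limma adjusted p = 0.206). Restricting to sites that pass the filter apart from the higher group, chosen after seeing the data, gave 9 of 28 higher at 1 h without the Il12b element (11.1% of all such sites). The cause of these changes was not tested.

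Of the window counts, Il23a at 18 h was 5 (exact permutation p = 0.04) with all deposited peaks, 0.833 (exact p = 0.02) within 10 kb and 1.01 (exact p = 0.015) adjusted for depth, and 0.583 to 1.33 (without KO 18 h replicate 1, exact p = 0.02) without 1 list. Il27 at 1 h was 6.08 (exact p = 0.135) with all deposited peaks, and at 18 h −0.5 (exact p = 0.2) with the 10000 best and −0.167 (exact p = 1) with all. Ebi3 at 1 h was 0.333 (exact p = 0.6) with the 10000 best, 0.917 (exact p = 0.74) with all and 0.833 (without KO 0 h replicate 3, exact p = 0.06) to 1.17 without 1 list. With the 10000 best, Ebi3 was 1 at 18 h (exact p = 0.03) and 0.667 for KO against WT (exact p = 0.036). Il27 for KO against WT was −0.889 (without KO 18 h replicate 3, exact p = 0.036) to −0.389 without 1 list. The 50% cover alternative was not run for these counts.

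Deviations from the group means correlated at −0.22 to 0.21 between lists of the same replicate number. Between lists of different numbers they correlated at −0.28 to 0.40. Group means rest on 2 or 3 lists, which ties the deviations together, so this check cannot settle whether replicate numbers pair the lists. With the replicate block 59 of 64 named differences kept their side of the threshold, 4 lost a call (the Il12b and Il23a promoters, Il23a −5.3 kb and Ebi3 −7.3 kb, all at 1 h) and 1 gained one (Il12a +18.0 kb at 1 h, 0.66, limma adjusted p = 0.0155), 11 of 35 sites were higher at 1 h (12% of all), and the counts were 5 (Il27 at 1 h, exact p = 0.125), 1.5 (Il27 at 18 h, exact p = 0.0625) and 1 (Ebi3 at 1 h, exact p = 0.25), where few pairings limit p. Read pileups of 7 to 195 at the Il12b element limit single ranks.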
